A study of Mus musculus with 36 samples.

Results

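The genes described here are the glutathione transferases (Gst) and aldehyde dehydrogenases (Aldh) of the mouse, and the measurement is methylation of CpG dinucleotides in liver DNA by whole-genome bisulfite sequencing. All protein-coding autosomal genes of the mm9 annotation with a symbol starting with Gst or Aldh were taken, which gave 43 genes (23 Gst and 20 Aldh) of 21418, on 13 chromosomes. CpGs were taken from 5 kb before the 5′ end of each gene to 1 kb past its 3′ end, 14616 of the 18887127 autosomal CpGs counted, and were read in fixed windows of 500 nt. Of the 2540 windows in these spans, 1275 (50.2%) were tested, namely those holding 5 CpGs or more with a depth of 30 reads or more for each mouse, among 1456902 such windows in the genome. A further 1239 had too few CpGs and 26 too few reads, and 39 windows (21 of them tested) lay in the spans of 2 of the genes.

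The study asked how strain, sex and life experience bear on methylation in a breeding experiment with C57BL/6N mice, called B6, and C3H/HeN mice, called C3, both inbred. The 24 animals formed 8 groups of 3: B6 sires, B6 dams, C3 sires, C3 dams, and sons and daughters of each reciprocal cross. B6C3F1 animals had B6 dams and C3 sires, and C3B6F1 animals had C3 dams and B6 sires. The dams had borne and nursed pups, whereas the daughters were virgins, so that in the parents sex and reproductive history cannot be told apart. From each cross 3 of the available families were taken, each as a sire, a dam, a son and a daughter. No animal carried a transgene or received an agent, all were killed at the same age, and the 3 animals of a group shared 1 inbred or F1 genotype. Parents lived in mating pairs or alone and offspring in cages of several animals of the same sex, so housing and generation cannot be told apart.

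Glutathione transferases join glutathione to electrophilic compounds, among them drugs, carcinogens and products of lipid peroxidation, and the liver is their main site. The alpha, mu, pi, theta, omega and zeta classes are cytosolic and kappa is organellar. Aldehyde dehydrogenases oxidise aldehydes to acids: the Aldh1a enzymes make retinoic acid from retinal, Aldh2 and Aldh1b1 clear acetaldehyde in mitochondria, Aldh1l1 and Aldh1l2 act on formyltetrahydrofolate, the Aldh3 enzymes act on fatty and aromatic aldehydes, and most of the others work in amino acid breakdown. CpG methylation of promoters and enhancers is often low where these are active.

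The sequences of 300 bases within 5 of the windows that carry the differences described below are printed on the plus strand of mm9, 5′ to 3′, with every CpG in capitals. The Gstp1 stretch is shown for the largest difference between the sexes, the Aldh1a7 stretch for a difference found in dams but not in daughters, the Aldh1a1 stretch for a difference by both sex and strain, and the Gsta2 and Aldh4a1 stretches for the largest differences between the strains in either direction. They lie at chr19:4034628-4034927, chr19:20798555-20798854, chr19:20708691-20708990, chr9:78191660-78191959 and chr4:139203542-139203841.
Gstp1: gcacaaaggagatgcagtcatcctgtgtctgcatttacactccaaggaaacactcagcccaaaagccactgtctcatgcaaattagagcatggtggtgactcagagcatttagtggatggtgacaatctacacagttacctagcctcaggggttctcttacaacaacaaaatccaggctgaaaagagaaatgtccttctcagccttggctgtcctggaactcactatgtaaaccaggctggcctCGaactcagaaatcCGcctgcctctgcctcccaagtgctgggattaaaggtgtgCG
Aldh1a7: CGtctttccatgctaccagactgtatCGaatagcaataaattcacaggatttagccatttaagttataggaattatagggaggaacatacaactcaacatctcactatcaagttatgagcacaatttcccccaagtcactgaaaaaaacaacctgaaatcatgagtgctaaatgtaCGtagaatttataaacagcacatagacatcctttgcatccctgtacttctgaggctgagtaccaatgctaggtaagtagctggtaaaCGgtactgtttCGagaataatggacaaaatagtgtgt
Aldh1a1: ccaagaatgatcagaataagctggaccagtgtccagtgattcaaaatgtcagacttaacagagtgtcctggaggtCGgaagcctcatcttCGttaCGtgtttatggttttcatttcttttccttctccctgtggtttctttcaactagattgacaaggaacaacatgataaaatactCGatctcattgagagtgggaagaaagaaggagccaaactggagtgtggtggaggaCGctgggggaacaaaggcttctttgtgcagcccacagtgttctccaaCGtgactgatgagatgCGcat
Gsta2: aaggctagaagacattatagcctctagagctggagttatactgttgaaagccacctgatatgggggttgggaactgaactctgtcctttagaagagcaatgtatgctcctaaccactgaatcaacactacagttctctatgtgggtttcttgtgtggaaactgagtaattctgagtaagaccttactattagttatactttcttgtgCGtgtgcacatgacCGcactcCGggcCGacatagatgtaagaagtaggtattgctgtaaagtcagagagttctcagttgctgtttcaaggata
Aldh4a1: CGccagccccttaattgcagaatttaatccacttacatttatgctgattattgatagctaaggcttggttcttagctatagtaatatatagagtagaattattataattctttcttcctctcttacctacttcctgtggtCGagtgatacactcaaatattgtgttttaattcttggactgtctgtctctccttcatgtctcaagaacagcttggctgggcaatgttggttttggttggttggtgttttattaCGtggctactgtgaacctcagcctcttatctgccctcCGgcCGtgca
The Gstp1 and Aldh1a7 stretches held no single nucleotide variant (SNV) between the strains, whereas the Gsta2 stretch held 1, the Aldh1a1 stretch 2 and the Aldh4a1 stretch 6. Of the 7 CpGs of the Aldh1a1 stretch, 6 were counted, since the authors kept only CpGs present in both strains.

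Depth limited how small a difference could be seen. Counts over the autosomal CpGs totalled 365740739 to 619888157 per animal, or 19.4 to 32.8 reads per CpG, and a tested window of these genes held a median of 203 reads per animal, at which counting error alone gives an SD of 3.51 percentage points for a level of 50%. PCR duplicates were removed by position and not by molecular identifiers, so this figure covers counting error only. A window was called different at a Benjamini-Hochberg adjusted p below 0.05 over all windows by limma, provided that the group means lay 10 percentage points or more apart. Whole liver was used, so a shift in the share of a cell type and a change of level within cells cannot be told apart. The 8 hepatocyte marker promoters had mean levels of 17.6 to 41.4%, with a median of 28.0%. Their means in B6 and C3 parents were 37.6 and 36.4% in Alb, 28.2 and 23.6% in Ttr and 28.1 and 26.5% in Apoa1. Apoa2 had 25.8 and 15.9%, Cps1 42.0 and 31.8%, Serpinc1 41.1 and 45.5%, Fgb 24.6 and 17.0% and F2 19.8 and 14.8%. The medians for marker promoters of Kupffer cells or macrophages, T cells, B cells, endothelial cells and cholangiocytes were 83.7, 79.7, 86.9, 70.8 and 70.4%, and among the last Sox9 had 0.944%. All of these other promoters but that of the macrophage gene Csf1r had a higher mean in C3 than in B6 parents. Whether such shifts bear on the strain differences below was not tested.

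Promoters were read from 1000 bp before to 500 bp after the annotated 5′ end. Their levels spanned nearly the whole scale, and 42 of the 43 could be tested (Gsta1 could not). The lowest means over the 24 animals were 0.272% in Aldh6a1, the methylmalonate semialdehyde dehydrogenase of valine breakdown, 0.376% in Gstcd, a gene named for its glutathione transferase C-terminal domain, and 1.46% in Gstt2. At the other end stood Gstt4 with 87.4%, Gstp2 with 84.9% and Aldh3b2 with 83.0%. The median was 13.9%, and 25 promoters lay below 20% and 6 above 60%. Among the transferases 13 of 22 lay below 20% and 4 above 60%, and among the dehydrogenases 12 of 20 and 2 of 20.

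**Figure D1:**
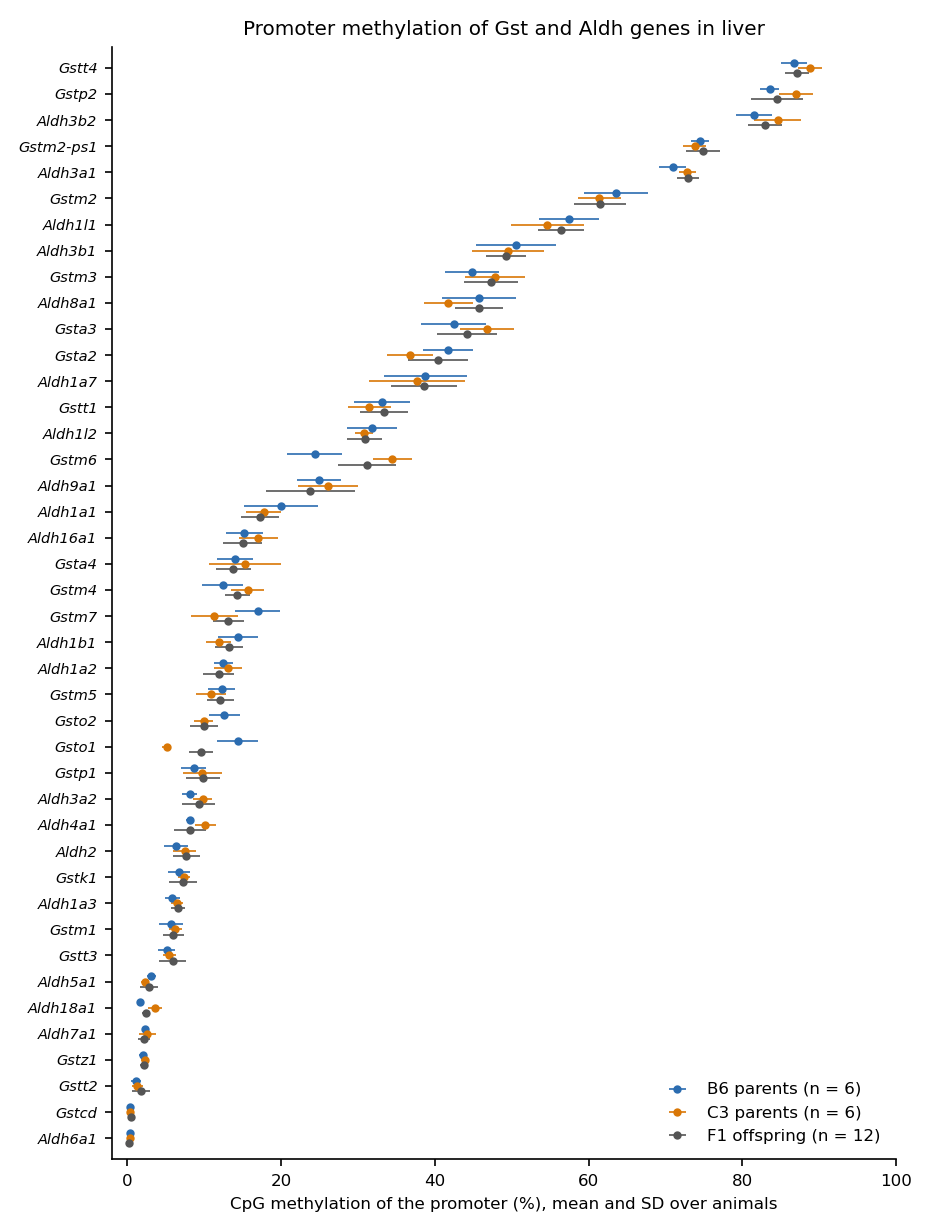
Promoter methylation (%, x axis) of the 42 testable Gst and Aldh genes (rows), as the mean and SD over 6 B6 parents, 6 C3 parents and 12 F1 offspring. Levels are from counts summed over the CpGs of a promoter. The genes run from 0.272% in Aldh6a1 to 87.4% in Gstt4, and at Gstm6 and Gsto1 the blue B6 and orange C3 points are separated. With CpGs weighted equally the difference at Gsto1 was 0.371 points.

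By class, promoter levels are given as a description, and no test between classes was made. The mu class, clustered on chromosome 3 apart from Gstm2-ps1, ran from 5.96% in Gstm1 to 74.5% in Gstm2-ps1 with a median of 22.2%. Between them stood Gstm5 (11.8%), Gstm7 (13.6%), Gstm4 (14.2%), Gstm6 (30.3%), Gstm3 (46.8%) and Gstm2 (62.0%). Gstm2-ps1, 555 bp long on chromosome 5, was annotated as protein-coding, though its symbol is that of a pseudogene. It enters the median of the class and the 4 transferase promoters above 60%. In the alpha class Gsta4, which acts on hydroxynonenal, stood at 14.2%, while Gsta2 and Gsta3 stood at 39.8 and 44.4%. The pi class was divided, with 9.50% ± 2.14 (SD, n = 24) in Gstp1 and 84.9% ± 2.92 (SD, n = 24) in Gstp2. Gstp1 and Gstp2 are near-identical copies, and depth over their gene bodies was 14.0 and 12.4 reads per CpG, so values within the bodies of both are uncertain. In the theta class Gstt2 (1.46%), Gstt3 (5.57%), Gstt1 (32.8%) and Gstt4 (87.4%), neighbours on chromosome 10, ran from one end of the scale to the other. The single members of the zeta and kappa classes, Gstz1, the maleylacetoacetate isomerase, and Gstk1, had 2.17 and 7.14%, and the omega genes Gsto1 and Gsto2 had 9.66 and 10.6%.

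Among the dehydrogenases, the Aldh3 genes had the highest promoter levels, with a median of 61.0%, since Aldh3b2 was joined by Aldh3a1 at 72.4% and Aldh3b1 at 49.6%, and of the 4 only Aldh3a2, the fatty aldehyde dehydrogenase, lay below 20% (9.11%). Both genes of acetaldehyde oxidation were low, Aldh2 at 7.28% and Aldh1b1 at 13.2%. Of the retinal dehydrogenases Aldh1a3 had 6.36%, Aldh1a2 12.3%, Aldh1a1 18.1% and Aldh1a7, a rodent relative of Aldh1a1, 38.4%. Aldh1l1, the cytosolic formyltetrahydrofolate dehydrogenase, stood at 56.2% and its mitochondrial relative Aldh1l2 at 31.1%. The amino acid group was mostly low, with Aldh7a1 at 2.25%, Aldh18a1 at 2.52%, Aldh5a1 at 2.74%, Aldh4a1 at 8.64%, Aldh16a1 at 15.6% and Aldh9a1, which takes part in carnitine synthesis, at 24.6%. Aldh8a1, of the kynurenine pathway, stood above them at 44.7%.

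No promoter of these genes was called in dams against sires (background 0.238% of 20595 promoters), daughters against sons (0.151%), dams against daughters (0.0486%), sires against sons (0.0194%), B6C3F1 against C3B6F1 (0.0146%), or for the interactions of strain with sex (0.00971%) and generation with sex (0.00971%). At an unadjusted p below 0.05 by limma these comparisons held 5, 6, 3, 2, 2, 3 and 4 of the 42 promoters (11.9, 14.3, 7.14, 4.76, 4.76, 7.14 and 9.52%, against 8.58, 6.29, 6.37, 5.66, 9.51, 11.6 and 5.34% of all promoters). A quasi-binomial test on the counts called 0 of the 42 in each as well.

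Only 1 promoter differed between B6 and C3 parents at the set threshold, that of Gstm6, a mu-class gene, against a background of 1.99% of promoters. The B6 sires had 20.1, 25.0 and 30.2% and the B6 dams 21.0, 25.1 and 24.8%, while the C3 sires had 35.9, 34.4 and 32.7% and the C3 dams 38.8, 32.3 and 32.6%, so the strains did not overlap. The difference was -10.1 percentage points (log2 ratio -0.71, SE 0.14, limma adjusted p 0.000398), and with each CpG weighted equally it was -8.23. Without replicate 1 of the B6 sires, B6 dams, C3 sires or C3 dams it was not called. The promoter of Gsto1, the omega-class thioltransferase, had 11.8 to 17.7% in B6 and 4.50 to 6.04% in C3, without overlap (+9.24 points, limma adjusted p 1.8e-09). At that promoter depth was 23.6 reads per CpG in B6 and 18.4 in C3. With equal weight for each of 61 of its 63 CpGs the levels were 6.92 and 6.55%, a difference of 0.371 points. The part of this shift in depth between CpGs in the 9.24 points was not tested further. The promoters of Gstm7 (+5.63 points, adjusted p 0.00194) and Aldh18a1 (-1.96 points, adjusted p 9.5e-05) passed the limma test with smaller differences.

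In the 500-nt windows over the whole spans, some of which overlap the promoters, 66 windows in 22 genes were called in at least 1 comparison, and 21 genes had none. The matching counts over all windows and genes of the genome were not made, so these numbers stand without a background. The largest difference was one of sex, past the 3′ end of Gstp1, the pi-class transferase, which is known to be more abundant in the liver of male than of female mice. This window, chr19:4034501-4035000, lies 3171 bp from the annotated start and has 5 CpGs, without an SNV, and the printed Gstp1 stretch holds 3 of the 5. The B6 sires had 50.9, 41.8 and 37.3% and the B6 dams 85.6, 80.7 and 84.6%. The C3 sires had 42.9, 32.5 and 45.9% and the C3 dams 91.7, 89.7 and 90.8%. Every dam lay above every sire.

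The offspring showed the same order. B6C3F1 sons had 45.3, 52.3 and 58.9% and daughters 89.8, 92.7 and 92.2%, and C3B6F1 sons had 60.1, 64.4 and 54.5% and daughters 87.7, 91.9 and 92.9%. Dams exceeded sires by 45.3 points (log2 ratio 3.22, SE 0.18, limma adjusted p 1.41e-13) and daughters exceeded sons by 35.3 points (2.96, SE 0.18, adjusted p 3.13e-12). Within B6 the difference of the parents was 40.3 points (adjusted p 1.04e-07) and within C3 50.3 points (adjusted p 6.47e-11), and the interaction with strain was not called (adjusted p 0.832). Sons stood 14.0 points above sires, which did not pass the test (adjusted p 0.184). Each of the 5 CpGs was higher in dams, by 26.4 to 58.2 points, and in daughters, by 19.4 to 51.1 points. The window held 83 to 179 reads per animal, at 25.9 reads per CpG in dams and 26.8 in sires.

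**Figure D2:**
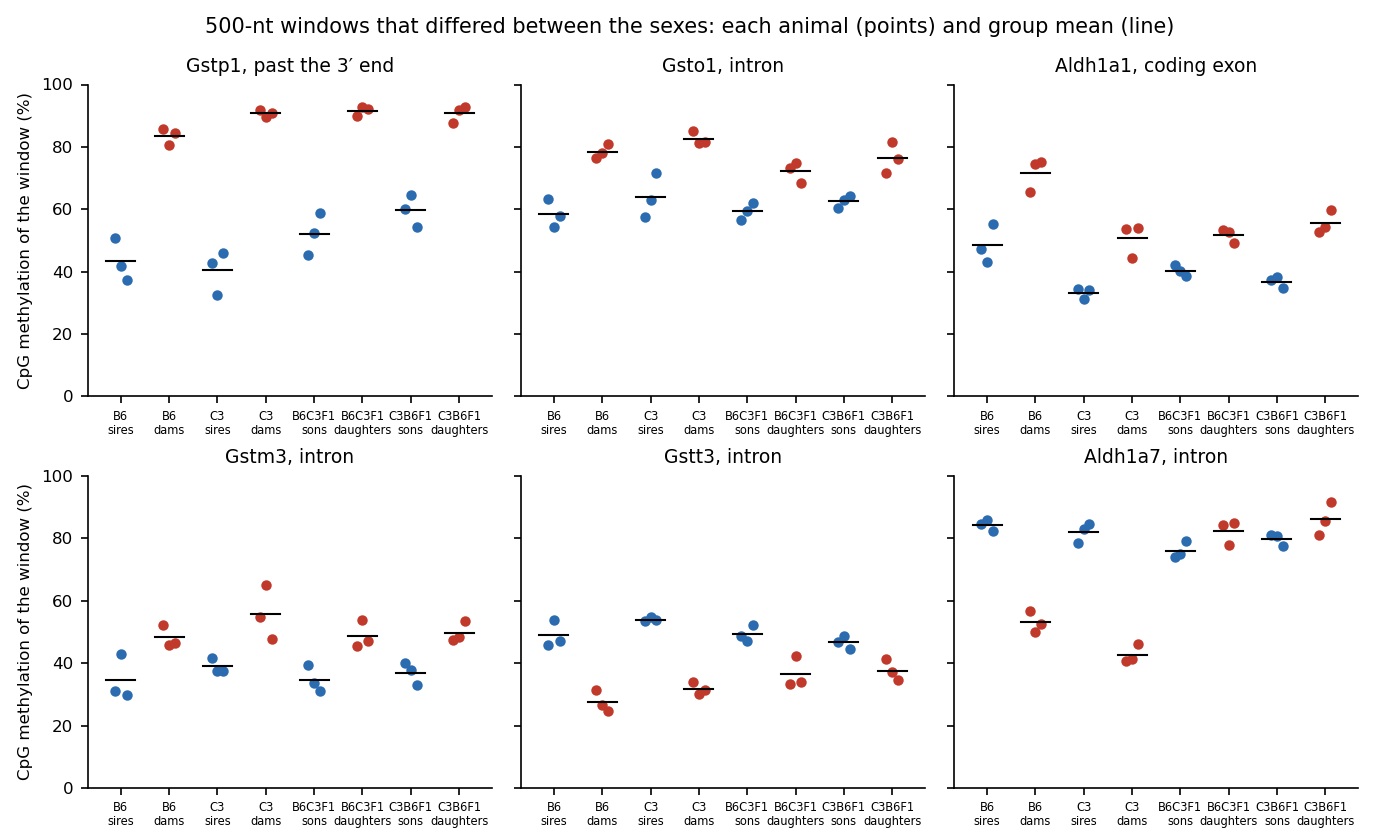
Methylation (%, y axis) of 6 windows that were called between the sexes, with each animal as a point (blue male, red female) and each group's mean as a line. Females lie above males in both generations at Gstp1, Gsto1, Aldh1a1 and Gstm3 and below them at Gstt3, whereas at Aldh1a7 only the dams are low.

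Sex differences in parents and offspring are read from different animals. Between dams and sires 16 of the 1275 windows (1.25%, against a background of 0.573%) were called in 12 genes, 11 higher and 5 lower in dams. Between daughters and sons 14 (1.10%, background 0.255%) were called in 11 genes, 11 higher and 3 lower in daughters. At least 20 points were reached by 5 windows in the parents (background 0.104%) and by 1 in the offspring (background 0.051%), that of Gstp1. Of all windows called in the genome, 58.2% were higher in dams and 88.0% higher in daughters. The 2 comparisons shared 8 windows of these genes, 50.0% of those of the parents and 57.1% of those of the offspring, and all 8 had the same direction. Across the genome 32.4% of the windows called between dams and sires and 72.7% of those called between daughters and sons were shared. Of the 16 windows called in the parents, 14 had the same sign in the offspring, and the other 2 were those of Aldh1a7 described below. Across the genome 7438 of 8345 had the same sign, and 2701 of the 2702 shared windows had the same direction.

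The shared windows lay in Gstp1, Gsto1, Gstm3, Gstt3, Aldh1a1, Aldh7a1 and Aldh8a1. In an intron of Gsto1 (chr19:47934501-47935000), sires had 54.2% at the lowest, 60.3% at the median and 71.5% at the highest, and dams 76.3, 81.1 and 85.1%. Sons had 56.6, 61.2 and 64.4% and daughters 68.4, 74.0 and 81.7%, so in neither generation did the sexes overlap. The differences were 19.3 points in the parents (log2 ratio 1.36, SE 0.16, limma adjusted p 1.01e-06) and 13.3 points in the offspring (adjusted p 0.00263). An intron of Gstm3 (chr3:107769501-107770000) behaved alike, with sires at 29.7, 37.6 and 43.0% and dams at 46.0, 50.0 and 64.9% (+15.3 points, adjusted p 0.00233), and daughters above sons by 13.5 points (adjusted p 0.0207; called in 19 of 24 fits without 1 animal).

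In Gstt3, a theta-class gene whose enzymes act on small halogenated compounds, females were lower. In its intron (chr10:75242001-75242500) sires had 45.8% at the lowest, 53.5% at the median and 54.9% at the highest, and dams 24.7, 30.7 and 33.9%. Sons had 44.6, 48.0 and 52.3% and daughters 33.5, 35.8 and 42.3%. The sexes did not overlap in either generation, with differences of -21.8 points in the parents (log2 ratio -1.32, SE 0.14, limma adjusted p 2.12e-07) and -10.9 in the offspring (adjusted p 0.0260). The call in the offspring was lost with thinned counts and held in 16 of 24 fits without 1 animal (adjusted p up to 0.129). The neighbouring gene Gstt1 had 2 windows called in the offspring and not in the parents, an intron at chr10:75256001-75256500 (-18.4 points, adjusted p 0.000149) and the adjoining window with a coding exon (-11.3 points, adjusted p 0.0305), which was called in 15 of 24 fits without 1 animal and not with thinned counts or with at least 3 CpGs. In the intron sons had 68.5, 73.3 and 79.4% and daughters 48.3, 55.6 and 60.9%, while sires had 67.3, 75.8 and 79.5% and dams 56.2, 66.8 and 69.9%. The dams lay 9.68 points below the sires on average (adjusted p 0.0498), short of the 10 points asked, and the interaction of generation with sex was not called there (adjusted p 0.701).

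Aldh1a1, the main retinal dehydrogenase of the liver, held windows called between the sexes, between the strains and between dams and daughters. A further window was called for the interaction of generation with sex, and some windows were called in more than 1 comparison. In the window of the printed stretch (chr19:20708501-20709000, a coding exon) the B6 sires had 47.1, 43.2 and 55.2% and the B6 dams 65.4, 74.5 and 75.3%, and the C3 sires had 34.4, 31.4 and 34.0% and the C3 dams 53.8, 44.4 and 54.1%. Within each strain every dam lay above every sire, and within each sex every B6 animal lay above every C3 animal. Dams exceeded sires by 20.3 points (log2 ratio 1.23, SE 0.15, limma adjusted p 2.27e-06), daughters exceeded sons by 15.1 points (adjusted p 0.00142) and B6 exceeded C3 by 18.2 points (adjusted p 3.04e-06). All 6 of its CpGs were higher in dams, by 18.2 to 32.0 points. The window held 2 SNVs, and depth was 24.6 reads per CpG in B6 and 25.7 in C3.

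The remaining windows called between dams and sires, apart from those of Aldh1a7 described below, differed by at most 15.5 points. Those higher in dams lay in introns of Aldh7a1, the aminoadipic semialdehyde dehydrogenase of lysine breakdown (+14.0 and +10.2 points, with +12.4 and +11.1 in daughters), Aldh8a1 (+10.2, with +12.2 in daughters), Aldh1l1 (+10.4 and +10.3) and Aldh1a2 (+10.4), and upstream of Aldh3b1 (+11.8). Without 1 animal at a time, the windows of Aldh1l1 were called in 22 and 18 of 24 fits, Aldh8a1 in 19, the smaller of Aldh7a1 in 19, Aldh1a2 in 17 and Aldh3b1 in 22. Both windows of Aldh1l1 and that of Aldh8a1 were not called with thinned counts (adjusted p over these alternatives up to 0.229, 0.0869 and 0.0831). In the offspring the window of Aldh8a1 was also lost with thinned counts and in 5 of 24 fits, and the smaller of Aldh7a1 in 3. With each CpG weighted equally, dams exceeded sires by 7.95 points in Aldh8a1, 7.31 in the smaller of Aldh7a1 and 8.14 in Aldh1a2. At the larger window of Aldh7a1 (56711501) the B6 sires had 63.0 to 64.5% and the B6 dams 85.7 to 86.8%. The C3 sires had 91.5 to 92.9% and the C3 dams 96.9 to 98.4%, so the difference in points was larger in B6. B6C3F1 sons had 64.7 to 69.5% and daughters 81.0 to 88.2%, while C3B6F1 sons (73.4 to 85.1%) and daughters (83.3 to 90.1%) overlapped. By summed counts the same window had the largest strain difference of Aldh7a1 (-20.0 points). It held 3 SNVs, and with equal weights for 4 of its 5 CpGs the strain difference was -15.9 points. Equal weights gave +18.2 points at 56668501 and -17.3 at 56732001. The windows lower in dams included an intron and a coding exon of Aldh3a2 (-13.1 and -15.5 points). In the exon of Aldh3a2 sires ranged from 57.7 to 60.4% and dams from 30.3 to 57.7% (SD 0.967 and 10.8, n = 6 each), so that the spread was wider in dams. The call of this exon was lost under the quasi-binomial test, with thinned counts and in 5 of 24 fits without 1 animal (adjusted p up to 0.113). Windows that met the threshold in daughters against sons and not in the parents, besides those of Gstt1, were higher in daughters and lay in Aldh1a1 (+12.2 points), Aldh1l1 (+12.5), Gsta2 (+11.5) and upstream of Gsta1 (+12.0). That of Aldh1l1 (adjusted p 0.0381) was not called with thinned counts or with at least 3 CpGs, and was called in 16 of 24 fits without 1 animal (adjusted p up to 0.191 over these alternatives). In dams against sires the same windows had +0.0504, +8.40, +8.39 and +8.97 points (limma adjusted p 0.987, 0.206, 0.000583 and 0.0271). Those of Gsta2 and Gsta1 thus missed only the 10 points asked. With each CpG weighted equally, daughters exceeded sons by 9.35 points at the window of Gsta1.

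Dams were compared with virgin daughters. The 2 kinds differ in reproductive history, generation, inbred or F1 genotype and housing, which cannot be told apart. Of the 1275 windows, 4 (0.314%, background 0.136%) were called between dams and daughters, all lower in dams, and 2 of them by at least 20 points (background 0.0198%). Of all such windows in the genome 12.2% were higher in dams. Both of the largest lay in introns of Aldh1a7, whose product is a close relative of Aldh1a1. At chr19:20798501-20799000, which holds the printed stretch, the B6 dams had 56.6, 50.0 and 52.6% and the C3 dams 40.6, 41.4 and 46.2%. Sires had 78.4% at the lowest, 83.8% at the median and 85.8% at the highest, sons 74.1, 78.3 and 81.1%, and daughters 77.7, 84.6 and 91.7%. Every dam lay below every animal of the other 3 kinds.

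Dams were lower at this Aldh1a7 window by -36.3 points against daughters (log2 ratio -2.55, SE 0.17, limma adjusted p 9.02e-11) and by -35.3 points against sires (adjusted p 6.33e-11). Daughters differed from sons by 6.27 points in the opposite direction, which did not pass the test (adjusted p 0.174). Within B6 dams differed from sires by -31.2 points and within C3 by -39.3 points. The change was uneven along the sequence. At the CpG at base 177 of the printed stretch pooled levels were 92.7% in sires, 90.8% in dams, 90.6% in sons and 94.6% in daughters, while at base 264 they were 74.0, 25.3, 70.0 and 78.7%. A second window of the gene (chr19:20797001-20797500) had 51.4% ± 0.740 in B6 dams and 46.6% ± 6.48 in C3 dams (SD, n = 3 each), against 76.9% ± 4.85 in sires and 78.0% ± 5.28 in daughters (SD, n = 6 each). There dams differed from daughters by -29.0 points and from sires by -27.9 points (limma adjusted p 1.35e-07 and 7.01e-08).

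**Figure D3:**
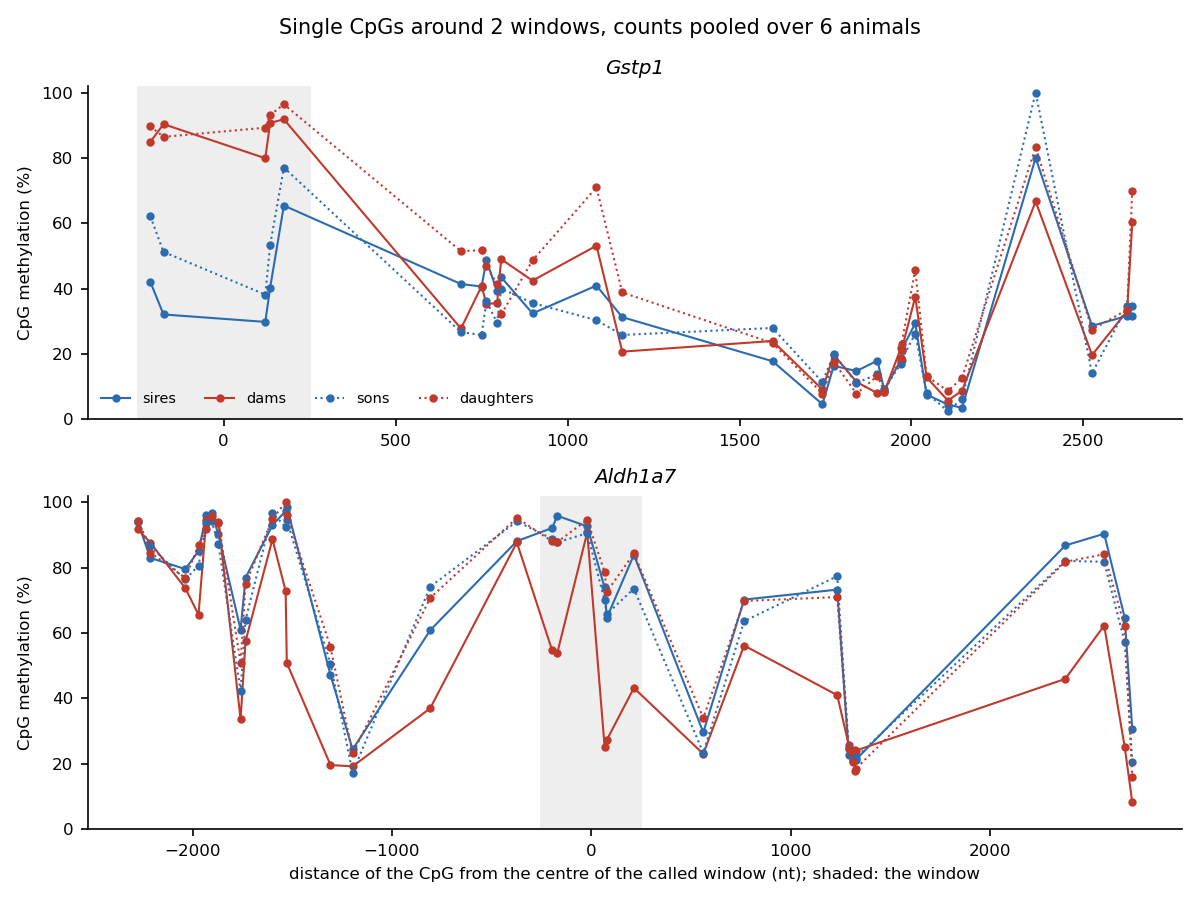
Methylation (%, y axis) of single CpGs, pooled over the 6 animals of each kind, around the called windows of Gstp1 and Aldh1a7, by distance in nt from the centre of the window (x axis; the window is shaded). At Gstp1 the red lines (dams and daughters) run above the blue ones (sires and sons) within the window, and at Aldh1a7 the solid red line (dams) runs below the other 3 at most CpGs.

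The other 2 windows were an intron of Aldh1a1 at chr19:20679501-20680000 and an intron of Aldh5a1, the succinate semialdehyde dehydrogenase of GABA breakdown. In the Aldh1a1 window daughters had 29.4% at the lowest, 33.1% at the median and 40.9% at the highest, dams 15.4, 21.8 and 33.2%, sires 15.3, 23.1 and 31.0%, and sons 16.6, 22.7 and 24.7%. Here the daughters were the highest on average, and dams and daughters overlapped (-10.9 points, limma adjusted p 0.0344). The window was not called with thinned counts or with at least 3 CpGs, and was called in 15 of 24 fits without 1 animal (adjusted p up to 0.158 over these alternatives). In Aldh5a1 dams had 65.5 to 75.9% and daughters 78.4 to 84.3%, without overlap (-10.3 points, adjusted p 0.0125). Sires had 69.1 to 84.4% and sons 68.0 to 78.6% there, so both overlapped with dams and with daughters. Without replicate 2 of the B6 dams, or replicate 1 of the C3 dams, the B6C3F1 daughters or the C3B6F1 daughters, only 2 of the 4 windows were called.

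The test of whether the sex difference itself changed from parents to offspring called 3 windows (0.235%, background 0.0414%), the 2 of Aldh1a7 (-41.5 and -35.8 points) and 1 shortly before the start of Aldh1a1 at chr19:20675501-20676000 (-16.6 points, limma adjusted p 0.0304). In this upstream window sires had 28.6% ± 5.65, dams 20.7% ± 5.82, sons 16.5% ± 3.10 and daughters 25.2% ± 1.84 (SD, n = 6 each), so that dams lay under sires and daughters over sons on average. Neither difference passed the test alone (-7.92 and +8.68 points, adjusted p 0.122 and 0.0698). Leaving out 1 animal at a time, this window was called in 10 of 24 fits, and it was not called with counts thinned to the shallowest animal or with at least 3 CpGs.

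Sires and sons are of the same sex and differ in generation, and with it in inbred or F1 genotype and in housing. They gave no called window (background 0.00968%), as did the reciprocal crosses (background 0.00178%) and the interaction of strain with sex in the parents (background 0.00178%). At an unadjusted p below 0.05 by limma these comparisons held 96, 76 and 75 of the 1275 windows, or 7.53, 5.96 and 5.88%, against 6.26, 6.69 and 5.42% of all windows, and the quasi-binomial test on the counts called 0 in each. Between sires and sons the window upstream of Aldh1a1 came close, at 12.1 points with an adjusted p of 0.0502, and 1 window was called without replicate 1 of the B6 sires and without replicate 1 or 2 of the B6 dams.

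Of the comparisons, strain gave the most called windows. Between B6 and C3 parents 46 windows (3.61%, background 2.39%) in 15 genes were called, 16 higher and 30 lower in B6, and 4 of them by at least 20 points (0.314%, background 0.494%). Of all windows called between the strains in the genome 44.4% were higher in B6. The dehydrogenases held 34 of these windows (3.95% of those tested) and the transferases 12 (2.90%). The genes with the most windows called in any comparison were Aldh7a1 with 12 of 66 tested, Aldh1l1 with 9 of 90 and Aldh4a1, the pyrroline-carboxylate dehydrogenase of proline breakdown, with 8 of 51. Their spans held 5.01, 0.100 and 6.06 SNVs per kb. The strain comparison and that of dams with sires use the same 12 parents and are not independent.

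The largest strain difference towards higher levels in B6 was in an intron of Gsta2, an alpha-class transferase (chr9:78191501-78192000). The B6 sires had 91.4, 92.9 and 94.1% and the B6 dams 88.1, 93.3 and 94.1%, while the C3 sires had 57.7, 52.0 and 57.6% and the C3 dams 71.1, 71.4 and 72.8%. F1 animals ran from 71.0 to 84.6% with a median of 82.4%. The strains did not overlap, with a difference of 28.5 points (log2 ratio 2.66, SE 0.19, limma adjusted p 2.67e-12), and depth was alike at 24.2 and 23.7 reads per CpG. Within C3 the dams lay above the sires by 16.0 points, which did not pass the test (adjusted p 0.0948). With each CpG weighted equally the strain difference was 26.1 points. In the same gene a window at chr9:78188001-78188500 went the other way, with 30.9 to 41.1% in B6 and 46.7 to 61.1% in C3 (-18.5 points, adjusted p 4.63e-05). Equal weights for its 9 CpGs gave -11.6 points.

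A larger difference in the other direction, with higher levels in C3, was in an intron of Aldh4a1 (chr4:139203501-139204000). B6 parents had 48.5% at the lowest, 55.4% at the median and 64.1% at the highest, and C3 parents 82.1, 85.9 and 93.8%, without overlap (-30.8 points, log2 ratio -2.27, SE 0.20, limma adjusted p 5.5e-10). This window held 11 SNVs, and depth was 23.6 reads per CpG in B6 and 9.94 in C3. With equal weight for each of the 4 CpGs that had enough reads in every parent, the difference was -17.9 points. Counts summed over the same 4 of its 6 CpGs gave -28.2. At 139192001, also in an intron of Aldh4a1, the counts summed over all 5 CpGs gave -18.4 points. Over the 3 CpGs that had enough reads in every parent the summed counts gave 0.341 and equal weights -2.50. Taken singly, with counts pooled over the parents of each strain, the 5 CpGs differed by -3.08 to +5.88 points. No single CpG thus showed the difference of the window. Depth over the window was 25.4 reads per CpG in B6 and 11.9 in C3. Past the 3′ end (139206001) summed counts gave +20.1 and equal weights +11.5 points, both over all 11 CpGs. The part of read alignment in these differences was not tested beyond this.

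Other transferases called between the strains were mostly lower in B6, as were 19346 of the 34774 windows called in the genome. Gsta3 had 5 windows, -10.1 to -15.4 points, of which those at 21246001 and 21247001 were not called with thinned counts, and Gsta4 had 1 (-12.2 points). Without 1 animal at a time, these 2 windows of Gsta3 were called in 16 and 19 of 24 fits. The theta genes Gstt1 and Gstt3 had 2 windows, a coding exon of Gstt1 (-12.9 points) and a stretch upstream of Gstt3 (-11.3 points), and both windows lie in the spans of both genes. That upstream of Gstt3 was called in 22 of 24 fits without 1 animal. The coding exon of Gstm6 shared with the span of Gstm3 (chr3:107746001-107746500) had 34.4 to 44.4% in B6 and 57.1 to 64.2% in C3 (-20.8 points, limma adjusted p 3.66e-07; -16.0 with equal weights). Upstream of Gsto1 (chr19:47928501-47929000) B6 had 51.2 to 58.2% and C3 33.0 to 42.6% (+16.1 points), at 37.0 and 12.8 reads per CpG. This window lies within the Gsto1 promoter described above, so the 2 differences share CpGs. Over the 8 of its 10 CpGs that had enough reads in every parent the summed counts gave 12.0 points and equal weights 4.65. Taken singly, with counts pooled by strain, its 10 CpGs differed by -6.56 to +12.4 points. Among the dehydrogenases Aldh1l1 reached -19.1 and +12.5 points, Aldh7a1 -20.0 and +17.7, Aldh1a3 -13.2, Aldh18a1 +13.2 and -14.6, and Aldh8a1 +10.8 and -12.6. With equal weights the Aldh7a1 windows at 56669001, 56722501, 56728501 and 56731001 had +9.64, +6.96, -9.29 and -8.87 points. Its other strain windows stayed at 10 points or more, though at 56711001 counts summed over 3 of its 5 CpGs gave -7.33. Equal weights gave -8.92 points in Aldh1a3, +9.47 in Aldh18a1 (40638501) and +8.97 in Aldh8a1 (21099501). In Gsta3 they gave -9.47 points at 21246001 and -9.53 at 21247001.

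**Figure D4:**
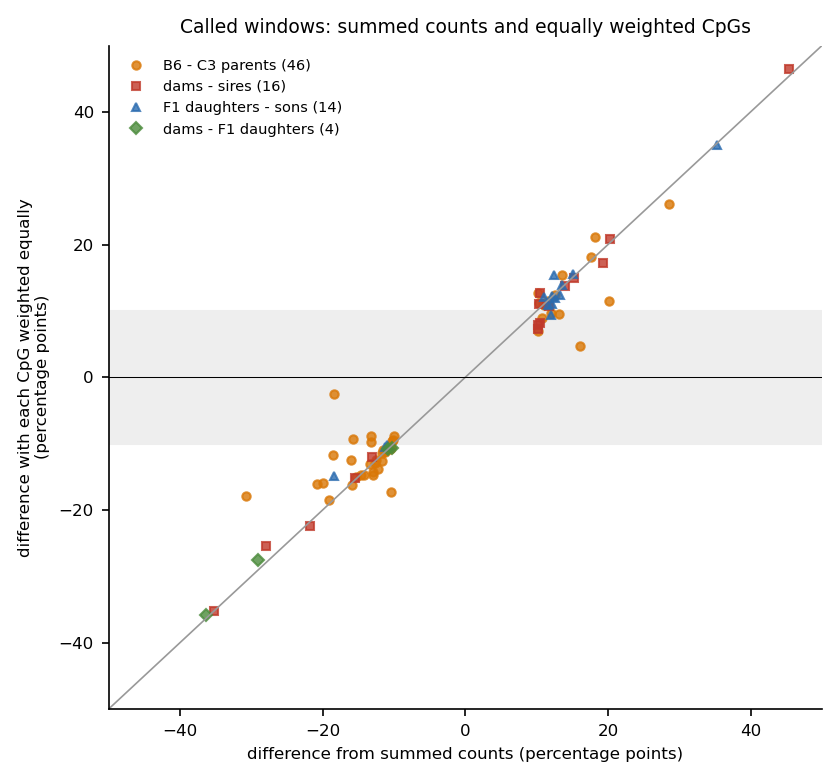
Differences in percentage points for the windows called in 4 comparisons, from counts summed over the CpGs of a window (x axis) and with each CpG weighted equally (y axis); the grey line is equality and the grey band marks less than 10 points. Of the strain windows 34 of 46 stayed at 10 points or more, against 13 of 16 for dams and sires, 13 of 14 for daughters and sons and 4 of 4 for dams and daughters.

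Weighting the CpGs equally, an alternative chosen after the data were seen, kept the direction of every called window in these 4 comparisons, and 2 strain windows, those of Gsto1 and of Aldh4a1 at 139192001, fell under 5 points. This alternative leaves out CpGs with fewer than 3 reads in any animal compared, and all CpGs entered in 35 of the 46 strain windows. Counts summed over the CpGs kept, also chosen after the data were seen, left 43 of the 46 strain windows at 10 points or more. Of the 202 tested windows that held an SNV 19 (9.41%) were called, and of the 1073 without one 27 (2.52%). Over all tested windows of the genome these shares were 6.05% of 321702 and 1.35% of 1135200, and whether those of these genes differ from them was not tested. Of the 8 genes with at least 1 SNV per kb 7 had a called window, against 8 of the 35 genes with fewer. The matching shares over all genes were not counted. In called windows with an SNV the median ratio of C3 to B6 depth was 0.723, and in those without 0.899. All reads were aligned to mm9, which is B6 in origin, and the part of this in the strain differences was not tested.

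At the 46 strain windows the mean of the 12 F1 animals lay between the parental means, a description only, since the windows were chosen on the parents. On a scale from 0 at the C3 mean to 1 at the B6 mean, the 12 F1 animals averaged 0.616 ± 0.071 (SD, n = 12). By window, the F1 mean had a median position of 0.615 and ran from 0.192 to 0.942, and it lay on the B6 side of the middle in 34 of 46, that is in 18 of the 27 without an SNV and 16 of the 19 with one. The median was 0.617 in windows without an SNV and 0.614 in windows with one. The ratio of C3 to B6 depth ran from 0.345 to 1.11 in the former and from 0.344 to 1.04 in the latter. F1 reads were aligned to mm9 too, and the part of lost C3 reads in the F1 position was not tested. The position over all strain windows of the genome was not computed, so these values stand without a background. B6C3F1 animals averaged 0.647 and C3B6F1 animals 0.585. At the window with the position of 0.942, in Aldh1a1 (20679501), daughters had 29.4 to 40.9% and sons 16.6 to 24.7%. The B6 parents had a mean of 28.3% there, so the daughters lay outside the parental means.

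**Figure D5:**
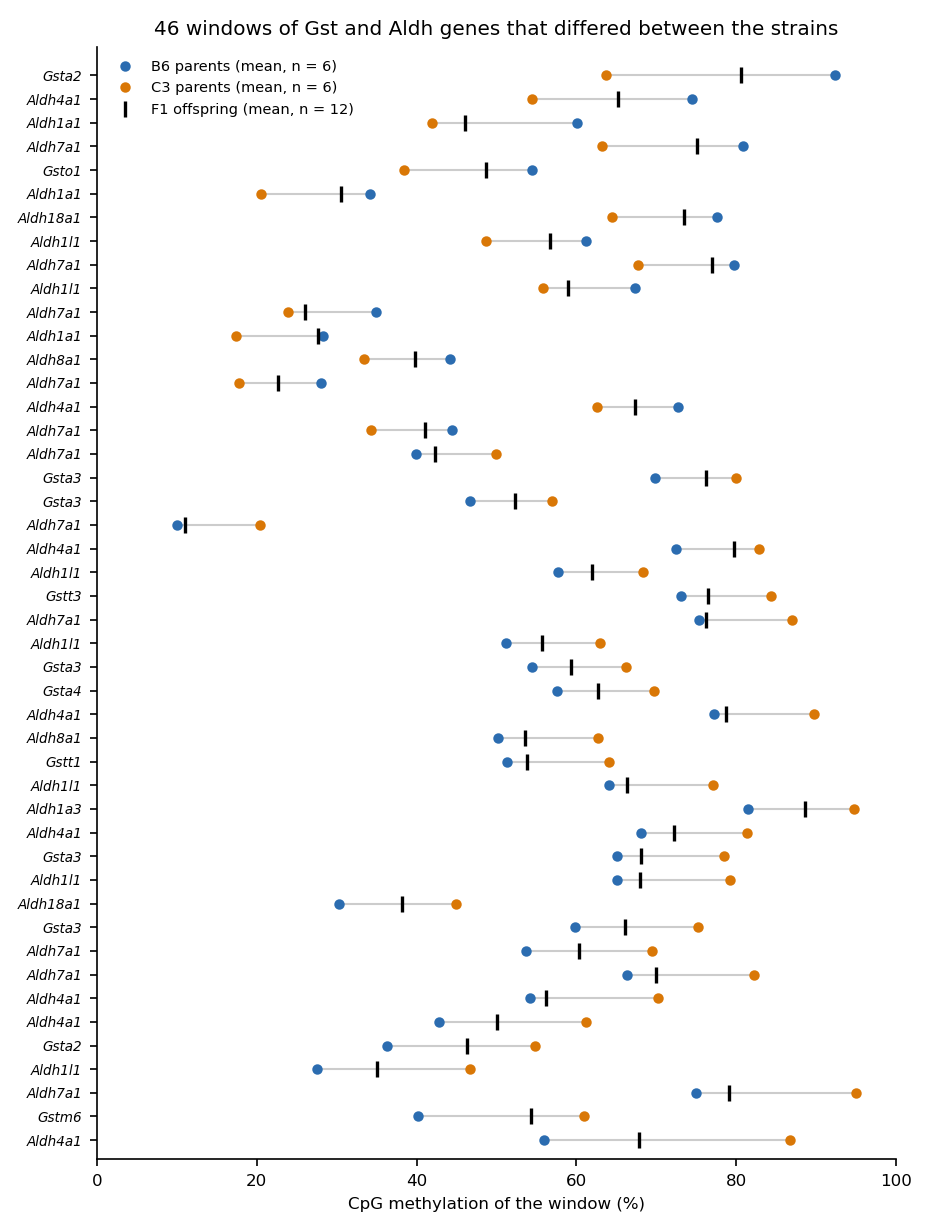
Mean methylation (%, x axis) of B6 parents, C3 parents and F1 offspring (colours) at each of the 46 windows called between the strains (rows, labelled by gene and ordered by the B6 minus C3 difference). The black F1 mark lies between the parents in all 46 rows and nearer to B6 in 34.

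By position, introns held 30 of 46 windows called for strain, 12 of 16 for dams and sires and 10 of 14 for daughters and sons, and 620 of the 1275 tested. Within 1 kb of an annotated start lay 4 strain windows (8.70%) and none of the windows called between the sexes, against 124 of the 1275 tested (9.73%). Levels of 20 to 80% were found in 91.3, 93.8 and 85.7% of the windows called in these 3 comparisons, against 31.1% of those tested. Since low windows can hardly differ by 10 points, position and level cannot be told apart here. Positions of all called windows of the genome were not counted.

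The windows were searched on both strands for 4 short motifs. The antioxidant response element core TGACNNNGC was in 13 of the 66 called windows (19.7%), in 19.0% of the tested windows of these genes and in 16.4% of all tested windows. The dioxin response element core GCGTG was in 42.4, 37.6 and 32.2%, the STAT site TTCNNNGAA in 13.6, 13.6 and 15.7%, and the forkhead site TGTTTAC in 12.1, 6.35 and 7.05%. These are matches of letters, and overlaps between motifs were not removed.

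Other genes of glutathione and aldehyde handling were counted for comparison, 47 genes with 1887 tested windows. Strain called 77 (4.08%; 28 higher and 49 lower in B6), dams against sires 56 (2.97%; 34 higher and 22 lower in dams), daughters against sons 25 (1.32%; 22 higher and 3 lower in daughters), dams against daughters 3 (0.159%; 1 higher and 2 lower in dams) and the interaction of generation with sex 2 (0.106%, both lower). Over all windows the shares were 2.39, 0.573, 0.255, 0.136 and 0.0414%, so that the share for dams against daughters lay near the background. The called windows lay in 27, 19, 9, 3 and 2 of the 47 genes. Most of those higher in females, in either generation, lay in Aox1 and Aox3, which lie near each other on chromosome 1. The largest strain differences were in Gclc, the catalytic subunit that makes the glutathione precursor (-38.5 points), in the alcohol dehydrogenase Adh1 (-38.1) and in the retinal reductase Dhrs3 (+37.8). Between dams and sires the transporter Abcc4 (-23.5 points), Adh1 (-21.0), the aldehyde oxidase Aox3 (+20.6) and Keap1, the inhibitor of Nrf2 (+20.0), had the largest.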

How the data were processed

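Liver DNA of 24 mice was analysed, 3 in each of 8 groups taken from the labels, and 12 FOXA1 and input libraries were not analysed here. The authors filtered reads by quality, aligned them with Bismark 0.7.8 and Bowtie 0.12.8 to mm9, removed duplicates, clipped read ends, merged the libraries of each animal and deposited counts of methylated and unmethylated reads per CpG and animal, not normalised and not pooled, for CpGs present in mm9 and in both strains. They also deposited a list of SNVs between the strains. Alignment to 1 genome can lower the depth of C3 reads near SNVs and so shift which CpGs a window's level rests on.

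Counts were summed over 500-nt windows (at least 5 CpGs and 30 reads in every animal) and promoters (at least 3 CpGs). log2((methylated + 1)/(unmethylated + 1)) was fitted over all 24 animals with 8 group means by limma 3.58.1 (trended, robust variances) in R 4.3.3, with Benjamini-Hochberg adjustment over all 1456902 windows or 20595 promoters. Differences in percentage points are differences of group means. Sums and tables used Python 3.11.15, numpy 2.4.6 and pandas 2.3.3. A window belonged to a gene where its midpoint lay in the span. The study's own region callers were not run. Planned exact permutation tests of single values were not run, since single values were read from the same fits. The fits were tested on simulated data.

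The genes and the lists of pathway genes, cell markers and motifs were chosen with earlier results of these data known. Every gene with a called window was named by its window of largest difference, with full values for at most 5 per comparison, and all promoters were named by class. Alternatives were another pseudocount, an arcsine scale, a quasi-binomial test, other minimums of reads, CpGs and difference, thinned counts, a replicate block, leaving out each animal, and equal weights or summed counts over the CpGs with at least 3 reads in every animal compared, these last 2 chosen after seeing the data. The animals are separate mice, so p-values measure the spread between mice. Replicate numbers were not taken to pair animals.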

Additional observations from a re-analysis of the deposited data

Results flagged for a closer look

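The sex difference of the parents differed from that of the offspring, by a test of the interaction itself (limma, Benjamini-Hochberg adjusted over all windows), in 3 windows. In the intron of Aldh1a7 at chr19:20798501-20799000 the difference between the 2 contrasts was -41.5 percentage points (log2 ratio -3.02, SE 0.25, adjusted p 1.99e-08), with dams lower than sires in both strains and daughters not lower than sons. In the neighbouring intronic window at chr19:20797001-20797500 it was -35.8 points (adjusted p 6.5e-06), and this window was called with each of the 24 animals left out in turn. In the window upstream of Aldh1a1 at chr19:20675501-20676000 it was -16.6 points (adjusted p 0.0304), with adjusted p between 0.0034 and 0.132 over the alternatives.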

How the results depend on the processing

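Counts of called windows of these genes stayed within 1.5 times the reported count and kept their direction under most alternatives. The Aldh4a1 window at 139192001 reversed, to 0.341 points between B6 and C3 parents, with counts summed over only the 3 of its 5 CpGs that had at least 3 reads in every parent. Between B6 and C3 parents (46 windows) 23 were called with at least 100 reads in every animal, 70 with at least 3 CpGs and 4 at 20 points. Between dams and sires (16) 27 were called with at least 3 CpGs and 5 at 20 points. Between daughters and sons (14) 8 were called with 100 reads and 1 at 20 points. Between dams and daughters (4) 2 were called with 100 reads, 9 with at least 3 CpGs and 2 at 20 points. Between sires and sons (0) 1 was called with a pseudocount of 5, on the arcsine scale and with 100 reads. The strain difference of promoters (1) gave 0 at 20 points. These settings change how many windows are tested or how large a difference is asked, except the pseudocount and the arcsine scale, for which the cause was not tested. The quasi-binomial test called 46, 15, 15 and 6 windows in the first 4 comparisons.

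Leaving out 1 animal at a time gave 41 to 48 windows for strain, 12 to 18 for dams and sires, 10 to 14 for daughters and sons, 2 to 5 for dams and daughters, 0 to 1 for sires and sons, 2 to 3 for generation by sex and 0 to 1 promoters for strain. Of the windows reported, 32 of 46, 9 of 16, 8 of 14, 2 of 4 and 2 of 3 were called at the 10-point threshold under each alternative that tested them and with each animal left out. These counts leave out equal weight per CpG and sums over the CpGs kept, which have no test. At 30 reads counting error alone gives an SD of 9.13 points for a level of 50%, so that differences near 10 points in shallow windows rest on few reads.

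With the replicate number as a block the counts were 46, 17, 14 and 4 for these comparisons, 0 for sires and sons, the crosses and strain by sex, and 3 for generation by sex, and 1 promoter was called for strain. Over windows, same-numbered animals of different groups had correlated deviations of -0.0088 to 0.0649 (84 pairs, 49 of them highest for the animal's own number), and over promoters of -0.172 to 0.279. Over promoters, all pairs among the sires, dams, sons and daughters of the C3B6F1 cross were above 0. Sons with daughters had 0.0855 to 0.279, dams with sons 0.108 to 0.192 and dams with daughters 0.0971 to 0.139. Sires with these 3 kinds had 0.0532 to 0.113. In the B6C3F1 cross sons with daughters had 0.0582 to 0.0949, dams with daughters 0.0368 to 0.0443 and dams with sires 0.0155 to 0.219. Dams with sons had -0.0569 to 0.0475, sires with sons -0.0761 to 0.0740 and sires with daughters -0.0223 to 0.0696. The labels do not say whether numbers follow families, so they were not taken as pairs. A block by number joins animals of both crosses, so its counts do not show what a block by family would give.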

Other observations

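Among the other genes of glutathione and aldehyde handling, Adh1, the alcohol dehydrogenase, had called windows in several comparisons. Between B6 and C3 parents its largest difference was -38.1 percentage points (52.5 and 90.6%). By sex its windows went in both directions, each window alike in both generations where it was called in both: at chr3:137924501-137925000 dams differed from sires by -21.0 points and daughters from sons by -10.2, and at chr3:137935501-137936000 by +18.9 and +20.5 points (limma, all windows). At the first of these dams also lay below daughters, by -10.5 points. Gclc, which makes the precursor of glutathione, had 49.1% in B6 and 87.6% in C3 at its window of largest difference and was higher in daughters than sons by 18.4 points at another called window. Dams had higher levels than daughters at a window of Keap1 (+16.6 points) and lower levels at a window of Hmox1, the heme oxygenase (-16.2 points).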
